A study of Homo sapiens with 6 samples.

Results

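The genes described here encode the machinery that copies DNA in S phase and the enzymes that supply its nucleotides. They are 44 genes, taken by name from the 58735 genes of the count table, and all 44 were among the 15430 genes with enough counts to be tested. They were measured by RNA-Seq in MCF10A, an established nonmalignant line of human breast epithelium, grown with horse serum, insulin, EGF, cholera toxin and hydrocortisone. In 3 libraries the cells had been transfected with a nontargeting control pool (siControl, labelled WT), and in 3 with siRNA against DAB2IP, a RasGAP (siDAB2IP, labelled as DAB2IP knockdown), and RNA was isolated 48 hours later. Both groups therefore share the line, the medium and a transfection, and a single targeting reagent stands behind the knockdown. The labels do not say whether libraries of a group came from separate cultures, so the p-values measure the spread between these libraries, which may be technical.

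Replication starts in G1, when the origin recognition complex, CDC6 and CDT1 load the ring-shaped MCM2-7 helicase onto DNA. In S phase CDC45 and the GINS complex join the ring and switch it on, the primase and polymerase α start each strand, polymerases δ and ε extend them on the PCNA clamp, and FEN1 and LIG1 join the fragments of the lagging strand. Most of these genes are known targets of E2F transcription factors and are transcribed at the passage from G1 to S, so their mRNA is widely used as a sign of cycling cells.

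Each library held 16353783 to 21916062 counts, so that a count of 0 allowed up to 0.137 to 0.183 CPM (counting error only). DAB2IP was at 103, 94.2 and 77.4 CPM in siControl replicates 1, 2 and 3 and at 27.5, 25.6 and 22.4 CPM in the siDAB2IP replicates, which goes with the labels. All 9 epithelial markers were detected in every library, but the basal keratin genes KRT5, KRT14, KRT17 and KRT6A fell. The summed level of the 9, most of it from these keratins, was 8279 to 10310 CPM with siControl and 4771 to 5665 CPM with siDAB2IP. KRT18, CDH1 and EGFR had log2 fold changes (log2FC, siDAB2IP against siControl) of 0.02, 0.095 and 0.031. TP63 and EPCAM had log2FCs of −0.57 and −0.40, and none of these other markers passed an adjusted p under 0.05 (edgeR). Of 14 markers of fibroblasts, endothelium, blood and immune cells, 7 passed the filter on low counts, and the summed level of the 14 was 243 to 345 CPM with siControl and 222 to 263 CPM with siDAB2IP. The immune and red cell genes CD3E and HBB were at 0 in all libraries and PTPRC in 5 of 6, but the immune marker CD14 was at 35.9 to 77.2 CPM. Of the 7 tested markers, 5 were lower and 2 higher with siDAB2IP. COL1A1, a collagen chain of fibroblasts, rose (log2FC 0.78, adjusted p = 0.0129 from edgeR), and 0 fell. The fibroblast genes DCN, at 122.5 to 274.8 CPM, and PDGFRB had log2FCs of −0.49 and −0.61 (adjusted p = 0.151 and 0.476 from edgeR). The endothelial genes PECAM1, CDH5 and VWF had log2FCs of −0.69, −0.465 and −0.64 (adjusted p = 0.0919, 0.351 and 0.226 from edgeR). COL1A2, COL3A1 and LUM did not pass the filter. The share of counts on mitochondrial genes was 10.6% to 10.9% with siControl and 9.59% to 12.8% with siDAB2IP, highest in siDAB2IP replicate 3. The part of these markers in the results was not tested.

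Several of the genes carry a match to the E2F consensus just before their start, and some of these stretches are shown. They are from genes that fell with knockdown and from GMNN and UNG, which did not pass an adjusted p under 0.05 (edgeR). TTTCGCGC, TTTGGCGC, TTTCCCGC and TTTGCCGC were searched on both strands of the 250 bases before each RefSeq start (GRCh38.p14). Capitals mark the match, and all stretches read 5′ to 3′ along the strand of the gene. Those of TYMS, CDT1, LIG1 and UNG touch an exon annotated in GENCODE release 29 and are kept short. MCM6 holds 2 sites, in each of which the forward and reverse matches overlap.
MCM6, distal site, chr2:135876560-135876619, minus strand: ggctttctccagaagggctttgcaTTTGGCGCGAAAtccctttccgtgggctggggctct
MCM6, proximal site, chr2:135876498-135876557, minus strand: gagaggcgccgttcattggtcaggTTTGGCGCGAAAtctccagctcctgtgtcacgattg
MCM3, chr6:52284885-52284940, minus strand: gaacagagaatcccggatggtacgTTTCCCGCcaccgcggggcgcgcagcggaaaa
PCNA, chr20:5126650-5126705, minus strand: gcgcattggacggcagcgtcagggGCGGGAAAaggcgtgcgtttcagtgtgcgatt
POLA1, chrX:24693757-24693812, plus strand: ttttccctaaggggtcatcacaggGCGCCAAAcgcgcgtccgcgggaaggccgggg
TYMS, chr18:657603-657632, plus strand: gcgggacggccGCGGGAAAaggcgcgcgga
CDT1, chr16:88803743-88803772, plus strand: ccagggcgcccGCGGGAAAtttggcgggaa
LIG1, chr19:48170440-48170469, minus strand: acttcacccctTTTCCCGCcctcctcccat
GMNN, chr6:24775309-24775364, plus strand: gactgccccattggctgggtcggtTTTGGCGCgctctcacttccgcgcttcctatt
UNG, chr12:109098098-109098127, plus strand: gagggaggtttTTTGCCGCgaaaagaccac

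Promoters were found for 38 of the 44 genes. A match was present in 15 of the 38 genes (39.5%), against 5.39% of the 10562 other tested genes with a promoter and 3.4% of all genes in the table (2.79% of all promoters). Among the further pathway genes described at the end of these results, 10 of the 70 with a promoter held a match (14.3%). Of the 18 genes that fell with knockdown and have a promoter there, 11 held a match, and of the 20 that did not pass the threshold, 4 did: GINS2, GMNN, POLA2 and UNG. The median log2FC was −0.75 for the 15 genes with a match and −0.78 for the 23 without, so the medians lay close together. CCAAT, the box bound by NF-Y, was present in 23 of the 38 genes (60.5%), in 51.4% of these further pathway genes and in 41.1% of the other tested genes. A match describes these letters only, and binding was not measured.

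DNA replication genes were lower with DAB2IP knockdown in nearly every member. Of the 44 genes, 21 (47.7%) fell and 0 rose at an adjusted p under 0.05 (edgeR), whereas 7.65% of all tested genes fell and 6.55% rose. At an unadjusted p under 0.05 (edgeR), 36 fell and 0 rose, against 2398 that fell and 2238 that rose among all 15430 tested genes. DESeq2 called 23 that fell and 0 that rose, against 8.98% and 7.15% of all genes it tested. The log2FC was negative for 43 of the 44, with a median of −0.75 against 0.01 for all tested genes, and the genes kept a median of 59.6% of their control CPM. In 36 of the 44, all siDAB2IP libraries were below all siControl libraries, which held for 18.3% of the tested genes, while 0 members had all siDAB2IP libraries higher (17.6% of the tested genes). With 3 libraries on each side, a two-sided exact permutation test of 1 gene cannot go under p = 0.1, its value for all 36. The counts describe these genes and are not a test of the list, which was chosen with earlier results of these data known. The siDAB2IP libraries also kept nearly the same order in every gene, so the genes are not independent of each other. Fewer cells in S phase and less of these mRNAs in each cell cannot be told apart in bulk RNA. The paper that reported these data found more proliferation of MCF10A cells with DAB2IP knockdown in an MTS assay, timed from cell seeding. The paper states that its MCF10A RNA-Seq also reflected this, and it names migration and motility terms enriched among the genes that rose. How these results relate to the lower replication mRNAs was not tested.

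**Figure D1:**
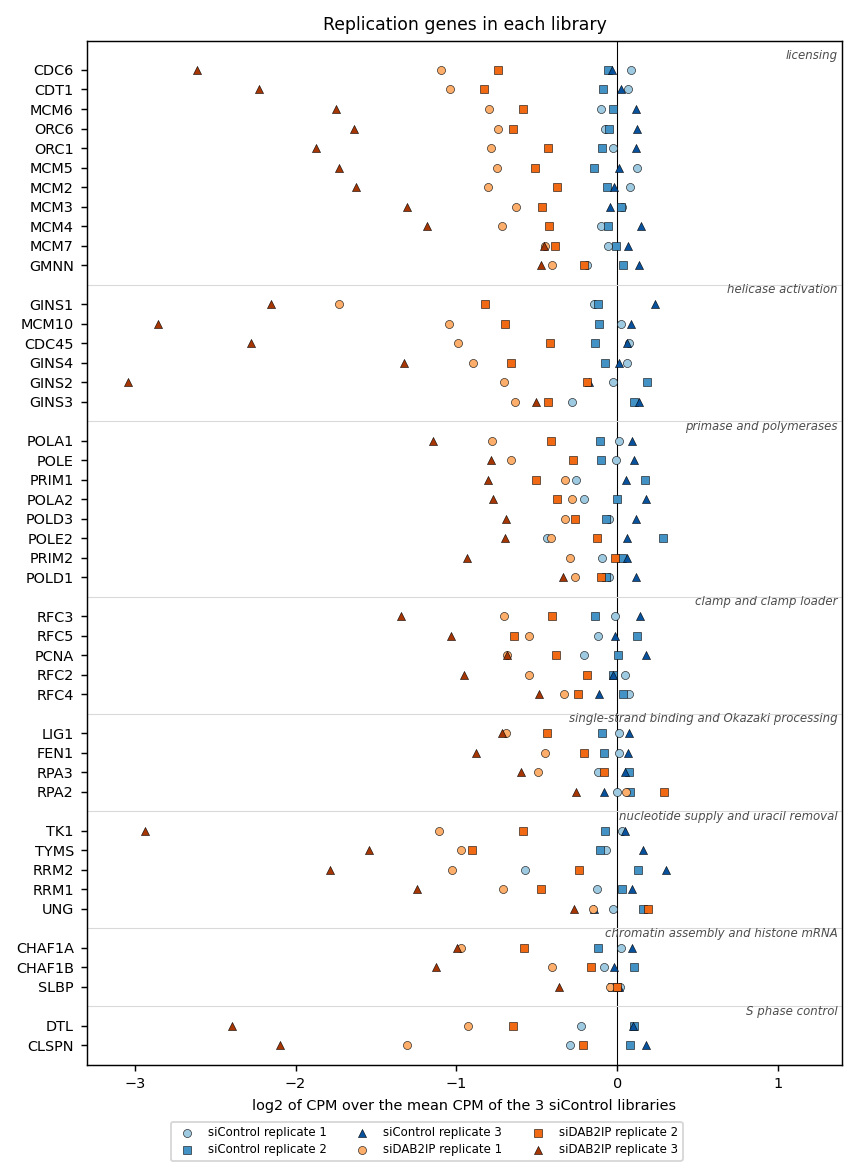
CPM of each of the 44 genes in each library, as the log2 ratio (x axis) to the mean of the 3 siControl libraries, with genes grouped by role (y axis). Blue points are siControl and orange points siDAB2IP libraries, and the siDAB2IP replicate 3 triangles are the lowest siDAB2IP point for 42 of the 44 genes.

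The 3 siDAB2IP libraries differed among themselves more than the control libraries did. The SD of log2 CPM within a group had a median over the 44 genes of 0.11 for siControl and 0.37 for siDAB2IP, against 0.15 and 0.19 over all tested genes. In the siDAB2IP group, replicate 3 was the lowest for 42 of the 44 genes and replicate 2 the highest for 41. Compared with the siControl library of the same number, 42 genes were lower in replicate 1 (median log2 ratio −0.63), 41 in replicate 2 (−0.37) and all 44 in replicate 3 (−1.17). The summed CPM of the 44 genes was 1481, 1508 and 1614 in siControl replicates 1, 2 and 3 and 1009, 1193 and 788 in the siDAB2IP replicates. Thus the order of the siDAB2IP libraries was nearly the same for every gene, and the groups did not overlap in the sum. A list of 20 mitotic genes, set beside these for comparison, had medians of −0.89, −0.60 and −2.53 in the same pairs and a median log2FC of −1.10.

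**Figure D2:**
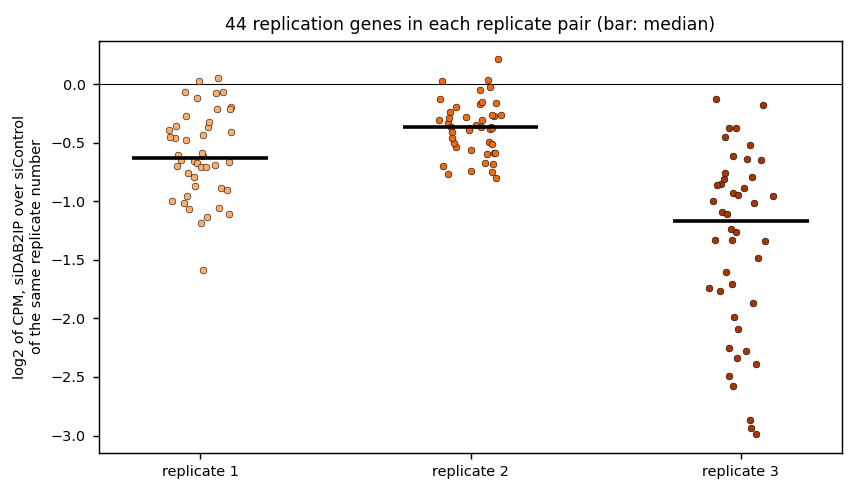
Log2 ratio of CPM (y axis), siDAB2IP over the siControl library with the same replicate number (x axis), with 1 point for each of the 44 genes and a bar at the median. The medians are −0.63, −0.37 and −1.17, and 44 of 44 points lie below 0 in replicate 3.

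The number of calls rested on which libraries were used. When siControl replicate 1 was left out, 9 of the 44 fell (4.74% of all tested genes). Leaving out siControl replicate 2 gave 4 (2.9%), and leaving out siControl replicate 3 gave 6 (4.1%). The siDAB2IP group gave 12 when replicate 1 was left out (5.4%), 29 for replicate 2 (6.44%) and 25 for replicate 3 (8.59%). The median log2FC stayed between −0.93 when siDAB2IP replicate 2 was left out and −0.55 when replicate 3 was, and 0 genes rose in any of these fits. With the replicate number as a block, 29 fell, the 21 and 8 more (11.4% of all tested genes), and with DESeq2 23 fell (8.98%). GINS1, LIG1, TYMS and CHAF1A were called in all 6 fits that left out a library, and RFC5 in 5 of 6, all but that without siControl replicate 2 (adjusted p = 0.0792 from edgeR).

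**Figure D3:**
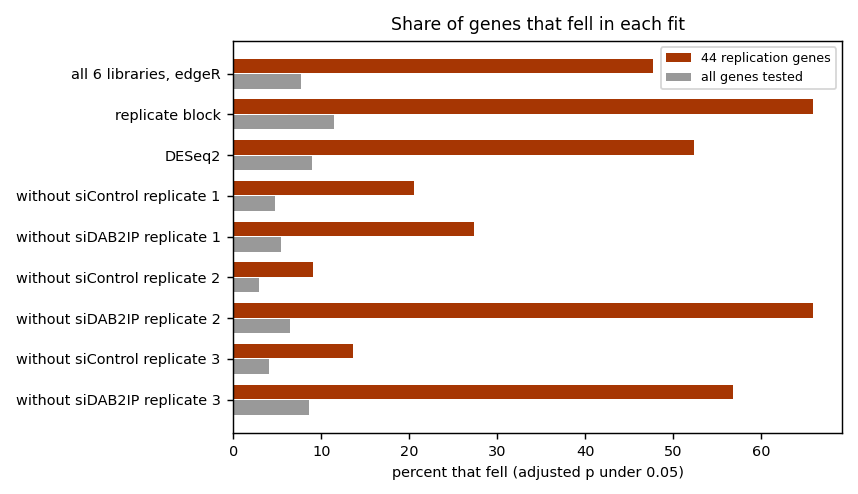
Percent of genes that fell (x axis) at an adjusted p under 0.05 in each fit (y axis), for the 44 replication genes and for all tested genes. The share of the replication genes is 47.7% with all 6 libraries and 9.09% without siControl replicate 2, and in each fit shown it is above the share of all genes.

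Of the 11 licensing genes, 9 fell, with a median log2FC of −0.91, and in all 11 the groups did not overlap. CDT1, the loader of the MCM ring that is destroyed once S phase begins, was at 21.6, 19.4 and 21.0 CPM in siControl replicates 1, 2 and 3 and at 10.0, 11.6 and 4.41 CPM in the siDAB2IP replicates (log2FC −1.25, standard error (SE) 0.28, adjusted p = 0.0177 from edgeR). Its partner CDC6, the ATPase that works with it, had a log2FC of −1.28 (adjusted p = 0.0346 from edgeR) and 41.0% of its control level, but did not pass with DESeq2 (adjusted p = 0.0678). ORC6, a subunit of the origin recognition complex, changed by −0.94 on the log2 scale (adjusted p = 0.0233). ORC1, its largest subunit, had a similar value of −0.91 but did not pass the threshold (adjusted p = 0.0646 from edgeR, 0.0366 with the replicate block and 0.0151 with DESeq2).

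All 6 subunits of the MCM2-7 ring fell, though not equally. MCM4 was at 127, 131 and 151 CPM with siControl and at 82.9, 101.7 and 60.1 CPM with siDAB2IP in replicates 1, 2 and 3 (log2FC −0.74, SE 0.17, adjusted p = 0.0188 from edgeR). MCM7 was at 199, 206.5 and 217 CPM with siControl and at 152, 159 and 151 CPM with siDAB2IP (log2FC −0.43, SE 0.09, adjusted p = 0.0146 from edgeR). In MCM7 the 3 siDAB2IP libraries were thus close together, whereas in the other subunits they were more spread, with replicate 3 the lowest. In the pair of replicate 3, MCM7 had a log2 ratio of −0.52 and the other subunits ones between −1.26 and −1.87. MCM2, MCM3, MCM5 and MCM6 had log2FCs of −0.84, −0.76, −0.91 and −0.96. Levels per length, in FPKM, were not equal among the subunits of this ring, which holds 1 copy of each. MCM7 was at 46.9 ± 2.05 FPKM, the highest of all 44 genes, MCM3 at 26.3 ± 0.78, MCM4 at 19.4 ± 1.83, MCM6 at 12.3 ± 0.96, MCM2 at 8.57 ± 0.42 and MCM5 at 5.93 ± 0.53 FPKM (SD, n = 3 siControl libraries). The order of the 6 was the same with siDAB2IP. MCM7 shares 8.9% of its exon bases with AP4M1 on the opposite strand, which was at 15.5 CPM.

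**Figure D4:**
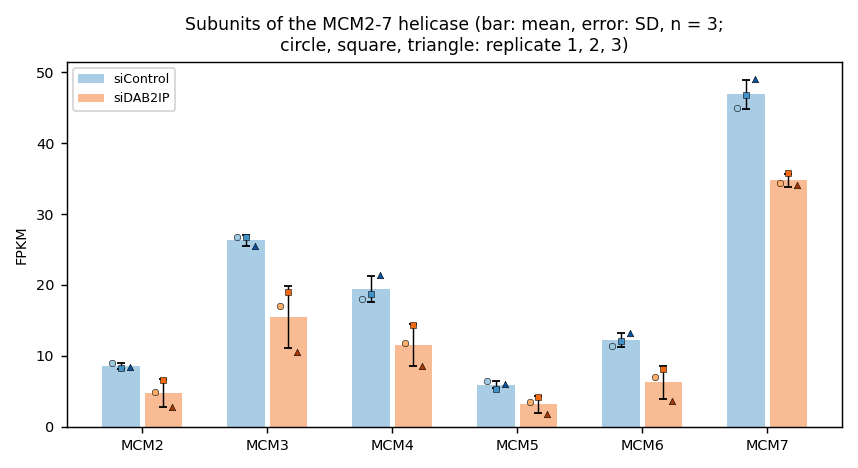
Level per length (FPKM, y axis) of the 6 subunits of the MCM2-7 helicase (x axis), with bars at the mean, error bars of 1 SD (n = 3) and a point for each library. MCM7 is highest in both groups, at 46.9 FPKM with siControl and 34.8 FPKM with siDAB2IP.

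GMNN encodes geminin, the inhibitor that binds CDT1 after S phase has begun. It was at 21.99, 25.7 and 27.6 CPM with siControl and at 18.9, 21.8 and 18.1 CPM with siDAB2IP, a log2FC of −0.36 (SE 0.14, adjusted p = 0.108 from edgeR). The mRNA of CDT1 therefore stood at 42.1% of its control level and that of its inhibitor at 78.1%. Neither protein was measured in these data. Of the 9 licensing calls, 2 held once siControl replicate 1 was left out, 0 for replicate 2 and 1 for replicate 3 of that group, and 5 held for siDAB2IP replicate 1, with adjusted p-values of at most 0.114. All 9 held for siDAB2IP replicates 2 and 3.

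The 6 genes of helicase activation had a median log2FC of −0.98, and 2 of them fell. GINS1 (chromosome 20, 25407727 to 25452628, plus strand of GRCh38), a subunit of the GINS complex that bridges the helicase and polymerase ε, was at 12.4, 12.6 and 16.1 CPM in siControl replicates 1, 2 and 3 and at 4.12, 7.75 and 3.07 CPM in the siDAB2IP replicates. Its log2FC of −1.45 (SE 0.29, adjusted p = 0.012 from edgeR) was the lowest of the 44 genes, and it kept 36.4% of its control CPM. GINS4 was at 6.67, 6.08 and 6.46 CPM with siControl and at 3.44, 4.04 and 2.55 CPM with siDAB2IP (log2FC −0.93, SE 0.21, adjusted p = 0.02 from edgeR). The other two subunits of this complex did not pass the threshold. GINS3 was at 4.61, 6.04 and 6.17 CPM with siControl and at 3.61, 4.15 and 3.94 CPM with siDAB2IP (log2FC −0.52, adjusted p = 0.111). GINS2 had a log2FC of −0.89 with a SE of 0.47 (adjusted p = 0.239), since siDAB2IP replicate 2 was at 7.97 CPM and replicate 3 at 1.10 CPM. Without siDAB2IP replicate 3 its adjusted p was 0.177.

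MCM10 and CDC45, which help to start the loaded helicase, were past the threshold only with some fits. MCM10 had a log2FC of −1.27 (adjusted p = 0.0522 from edgeR, 0.0248 with the replicate block and 0.122 with DESeq2). CDC45 had one of −1.03 (adjusted p = 0.0709 from edgeR, 0.0317 with the replicate block and 0.00892 with DESeq2). For each of them all siDAB2IP libraries were lower, and siDAB2IP replicate 3 was at 2.03 and 3.71 CPM against 13.6 or more and 16.3 or more CPM in the control libraries. The call of GINS4 was lost without siControl replicate 1, 2 or 3 (adjusted p at most 0.0657).

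The primase and polymerase genes changed less, with a median log2FC of −0.44, and 2 of 8 fell. POLA1, the catalytic subunit of polymerase α, was at 23.7, 21.9 and 25.1 CPM in siControl replicates 1, 2 and 3 and at 13.7, 17.7 and 10.7 CPM in the siDAB2IP replicates (log2FC −0.75, SE 0.18, adjusted p = 0.0228 from edgeR). POLE, the catalytic subunit of the leading strand polymerase ε, was at 118, 111 and 128 CPM with siControl and at 75.6, 98.8 and 69.1 CPM with siDAB2IP (log2FC −0.55, SE 0.14, adjusted p = 0.0244 from edgeR). Both calls were lost when any siControl library or siDAB2IP replicate 1 was left out (adjusted p at most 0.0763). POLD1, the catalytic subunit of the lagging strand polymerase δ, was at 74.8, 73.6 and 83.8 CPM with siControl and at 64.4, 72.3 and 61.2 CPM with siDAB2IP. Its groups did not overlap, but the nearest values were 73.6 and 72.3 CPM, and the log2FC was −0.23 (SE 0.10, adjusted p = 0.164 from edgeR).

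The other 5 genes of this role did not pass the threshold. POLD3 had a log2FC of −0.41 (adjusted p = 0.0773), PRIM1, the catalytic primase subunit, one of −0.53 (0.151), POLA2 one of −0.46 (0.203), PRIM2 one of −0.37 (0.33) and POLE2 one of −0.40 (0.341, all from edgeR). These were also among the genes with the lowest levels per length, at 0.77 to 1.73 FPKM in the control libraries apart from POLD3 at 5.08 FPKM. POLA2 shares 35.1% of its exon bases with a noncoding gene on the same strand. Outside the 44 genes, POLD4, the smallest subunit of polymerase δ, rose, with means of 7.29 ± 1.26 CPM for siControl and 15.4 ± 2.49 CPM for siDAB2IP (SD, n = 3; log2FC 1.08, SE 0.18, adjusted p = 0.00577 from edgeR).

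**Figure D5:**
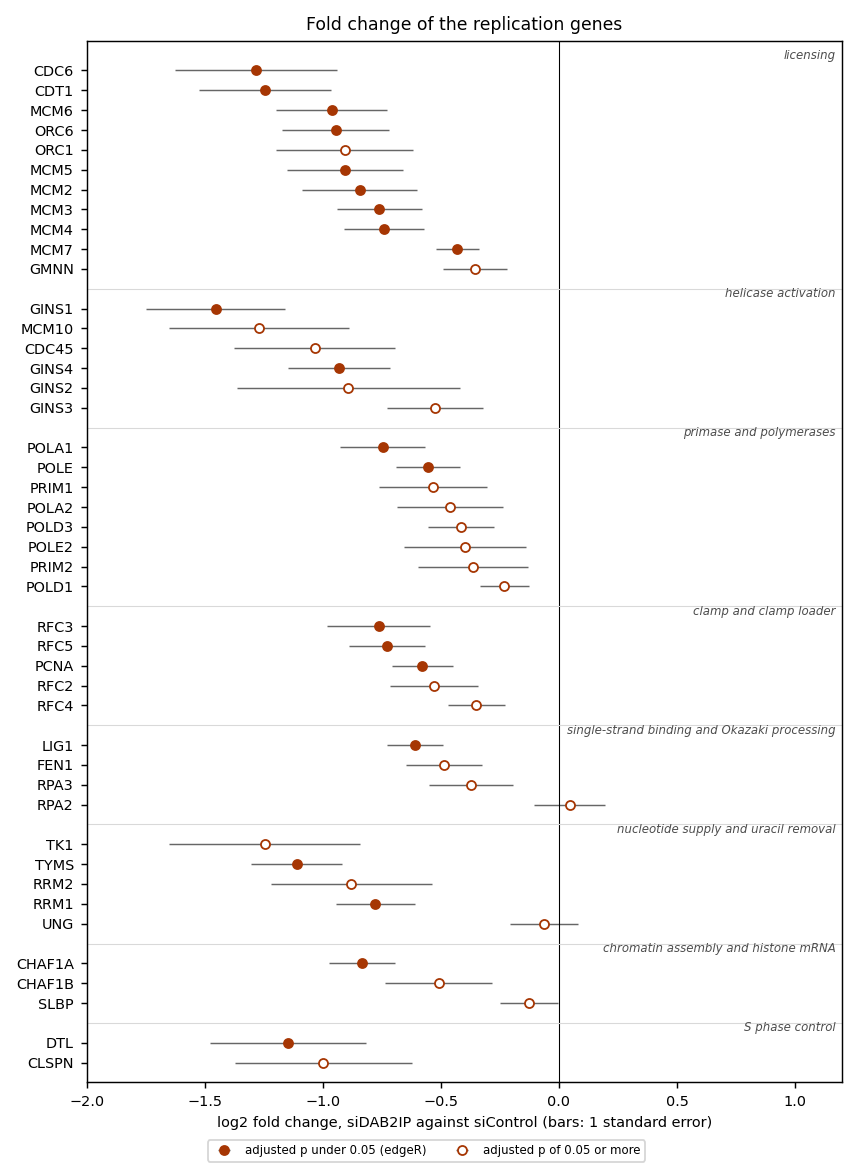
Log2FC (x axis) of siDAB2IP against siControl for the 44 genes (y axis, grouped by role), with bars of 1 standard error (SE). Filled points have an adjusted p under 0.05 (edgeR) and number 21, and GINS1 lies lowest at −1.45 while RPA2 at 0.05 is the single point above 0.

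PCNA, the sliding clamp, and 2 of the 4 listed subunits of its loader fell, with a median of −0.58 for the 5 genes. PCNA was at 52.0, 60.3 and 67.9 CPM in siControl replicates 1, 2 and 3 and at 37.3, 46.1 and 37.3 CPM in the siDAB2IP replicates (log2FC −0.58, SE 0.13, adjusted p = 0.018 from edgeR). RFC5 was at 16.1, 19.1 and 17.4 CPM with siControl and at 11.96, 11.2 and 8.58 CPM with siDAB2IP (log2FC −0.73, SE 0.16, adjusted p = 0.0168 from edgeR). RFC3 was at 16.4, 15.1 and 18.4 CPM with siControl and at 10.2, 12.6 and 6.55 CPM with siDAB2IP (log2FC −0.76, SE 0.22, adjusted p = 0.0426 from edgeR). RFC3, RFC5 and the subunits RFC2 and RFC4 form the small part of the clamp loader. RFC4 was at 29.3, 28.5 and 25.7 CPM with siControl and at 22.1, 23.5 and 19.8 CPM with siDAB2IP (log2FC −0.35, adjusted p = 0.083 from edgeR and 0.0491 with the replicate block). RFC2 had a log2FC of −0.53 (adjusted p = 0.088 from edgeR and 0.0451 with the replicate block). In all 5 genes the groups did not overlap. Of the 3 calls, 0 held without siControl replicate 2 (adjusted p at most 0.0881), whereas leaving out siControl replicate 1 kept 2, siControl replicate 3 kept 1 and siDAB2IP replicate 1 kept 1.

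On the lagging strand, LIG1 fell and the single-strand binding gene RPA2 did not. LIG1 (chromosome 19, 48115445 to 48170603, minus strand), the ligase that joins Okazaki fragments, was at 38.3, 35.7 and 40.0 CPM in siControl replicates 1, 2 and 3 and at 23.5, 28.1 and 23.1 CPM in the siDAB2IP replicates (log2FC −0.61, SE 0.12, adjusted p = 0.0102 from edgeR). The flap nuclease gene FEN1 had a log2FC of −0.49 (adjusted p = 0.0711 from edgeR, 0.0468 with the replicate block and 0.0412 with DESeq2), and shares 6.7% of its exon bases with TMEM258 on the opposite strand. RPA2, the middle subunit of replication protein A, was at 22.2, 23.5 and 21.0 CPM with siControl and at 23.1, 27.2 and 18.6 CPM with siDAB2IP. The groups overlapped on both sides, and its log2FC of 0.05 (SE 0.15, adjusted p = 0.878 from edgeR) turned negative without siDAB2IP replicate 2 (−0.10) or siControl replicate 3 (−0.01). RPA3, the smallest subunit of the same complex, had a log2FC of −0.37 (adjusted p = 0.197).

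Of the nucleotide genes, TYMS and RRM1 fell. TYMS (chromosome 18, 657604 to 673578, plus strand) encodes thymidylate synthase, which makes dTMP, and was at 13.5, 13.2 and 15.8 CPM in siControl replicates 1, 2 and 3 and at 7.22, 7.59 and 4.87 CPM in the siDAB2IP replicates. Its log2FC was −1.11 (SE 0.19, adjusted p = 0.00604 from edgeR). TYMS shares 39.1% of its exon bases with ENOSF1 on the opposite strand, which was at 80.9 CPM, and without a stated strand setting the reads of both cannot be told apart. RRM1, the large subunit of ribonucleotide reductase, was at 64.1, 71.3 and 74.4 CPM with siControl and at 42.6, 50.3 and 29.5 CPM with siDAB2IP (log2FC −0.78, SE 0.17, adjusted p = 0.016 from edgeR). Its call was lost without siControl replicate 2 (adjusted p = 0.0556) or siControl replicate 3 (adjusted p = 0.0507).

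RRM2, the small subunit that limits the reductase in S phase, had a log2FC of −0.88 with a SE of 0.34 and did not pass the threshold (adjusted p = 0.113 from edgeR). Its control libraries were at 14.5, 23.6 and 26.7 CPM and overlapped the siDAB2IP libraries at 10.6, 18.3 and 6.26 CPM, and it passed without siDAB2IP replicate 2 (adjusted p = 0.0231). Its p53-regulated relative RRM2B, outside the 44 genes, was higher in all siDAB2IP libraries, with a log2FC of 0.30 (adjusted p = 0.0722 from edgeR and 0.0447 with the replicate block). TK1, the salvage kinase for thymidine, had a log2FC of −1.25 with a SE of 0.40 (adjusted p = 0.0667 from edgeR, 0.0283 with the replicate block and 0.163 with DESeq2). Its siDAB2IP libraries were at 5.98, 8.59 and 1.68 CPM against 12.2 to 13.3 CPM with siControl. UNG, which removes uracil from DNA, was at 30.2, 34.4 and 27.9 CPM with siControl and at 27.8, 35.2 and 25.6 CPM with siDAB2IP. The groups overlapped, and its log2FC of −0.06 (adjusted p = 0.813 from edgeR) became 0.01 without siControl replicate 2 and 0.03 without siDAB2IP replicate 3.

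CHAF1A had the smallest p of the 44 genes. It lies on chromosome 19 (4402662 to 4445018, plus strand) and encodes the large subunit of chromatin assembly factor 1, which places histones on new DNA behind PCNA, and was at 36.5, 33.1 and 38.3 CPM in siControl replicates 1, 2 and 3 and at 18.3, 24.1 and 18.0 CPM in the siDAB2IP replicates (log2FC −0.84, SE 0.14, adjusted p = 0.00541 from edgeR). CHAF1B, the middle subunit, was at 10.3, 11.7 and 10.7 CPM with siControl and at 8.24, 9.75 and 4.99 CPM with siDAB2IP (log2FC −0.51, adjusted p = 0.162). SLBP, which binds the stem-loop of histone mRNAs and is controlled in the cycle mainly at the protein level, was at 33.3, 32.2 and 33.1 CPM with siControl and at 31.9, 32.8 and 25.6 CPM with siDAB2IP. Its groups overlapped, with a log2FC of −0.13 (SE 0.12, adjusted p = 0.531 from edgeR).

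DTL is the adaptor by which the CUL4 ubiquitin ligase destroys CDT1 on chromatin. It was at 38.9, 48.8 and 48.6 CPM in siControl replicates 1, 2 and 3 and at 23.9, 29.02 and 8.64 CPM in the siDAB2IP replicates (log2FC −1.15, SE 0.33, adjusted p = 0.045 from edgeR). DTL did not pass with DESeq2 (adjusted p = 0.104), nor without any siControl library or siDAB2IP replicate 1 (adjusted p at most 0.127). CLSPN encodes claspin, which links stalled forks to CHEK1, and was at 7.29, 9.43 and 10.1 CPM with siControl and at 3.61, 7.70 and 2.09 CPM with siDAB2IP. The groups overlapped at siDAB2IP replicate 2, and the log2FC of −0.998 had an adjusted p of 0.104 (edgeR; 0.0391 with the replicate block and 0.034 with DESeq2).

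Other genes of the pathway changed less as a group. Of 81 further genes of replication, nucleotide metabolism, chromatin replication and checkpoint signaling, 80 were tested, and 15 fell and 4 rose, with a median log2FC of −0.22 and 59 of 80 lower. Their log2FCs ranged from −1.43 to 1.08, against −1.45 to 0.05 for the 44 genes, so single further genes fell about as far. Among all tested genes, 7.65% fell and 6.55% rose, and the 4 of 80 that rose did not exceed that share. The origin group had 4 of 18 that fell, the polymerase and lagging strand group 4 of 18, the chromatin and checkpoint group 6 of 19 and the nucleotide metabolism group 1 of 25, with medians of −0.35, −0.24, −0.31 and −0.03. The 1 of 25 also did not exceed the share of all tested genes that fell. Among those with the smallest p, the histone chaperone gene RBBP4, whose product is the small subunit of chromatin assembly factor 1, had a log2FC of −0.57 (adjusted p = 0.0044). DBF4, the activator of the origin-firing kinase CDC7, had one of −0.98 (adjusted p = 0.00642), the clamp loader gene CHTF18 one of −0.64 (adjusted p = 0.00752) and the checkpoint kinase gene CHEK1 one of −0.73 (adjusted p = 0.0101). In the other direction, besides POLD4, CUL4B, a scaffold of the CUL4 ligases, rose from 73.2 ± 1.18 to 129.6 ± 14.4 CPM (SD, n = 3; log2FC 0.83, adjusted p = 0.0016 from edgeR). CTPS1, which makes CTP, rose by 0.37 on the log2 scale (adjusted p = 0.0415). NT5E, a nucleotidase of the cell surface, had a log2FC of 0.97 (adjusted p = 0.04 from edgeR and 0.0754 with DESeq2), and its groups overlapped. Of the further genes, 5 fell when siControl replicate 2 or 3 was left out (2.9% and 4.1% of all tested genes). When replicate 1 or 2 of either group was left out, 2 rose, against 1.67% to 4.47% of all tested genes in those fits.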

How the data were processed

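Total RNA of MCF10A cells was sequenced in 6 libraries, 3 siControl and 3 siDAB2IP. The submitters' processing notes name hg38, STAR 2.6.1d, featureCounts 1.5.0-p3, DESeq2 1.20.0 and edgeR 3.24.3. The strand setting is not given in the sources used here. The authors deposited whole-number counts per gene without normalization. The authors also deposited FPKM, which equal the count divided by gene length and by a scaled library total, which is 98.9% to 104.7% of the library's counts. FPKM were used for levels between genes and in alternatives.

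For the tests, edgeR 4.0.16 was run on the counts under R 4.3.3 (filterByExpr with the groups, TMM, glmQLFit, glmQLFTest), with Benjamini-Hochberg adjustment over 15430 genes and a threshold of 0.05. CPM are TMM-normalized, and standard errors come from the F statistic. Alternatives were DESeq2 1.42.0, its size factors in edgeR, library size only, no filter, at least 10 counts in every library, limma 3.58.1 on log2(FPKM + 1) and log2(FPKM + 0.1), a replicate block, and leaving out each library. After removal of group means, libraries with the same replicate number correlated across genes at 0.30, 0.19 and 0.27 and other pairs at 0.03 or less. The libraries were therefore paired by number in the replicate ratios and in the blocked fit, although the labels do not say what the numbers stand for. The reported fit has no block and the exact permutation test no pairing, and the blocked p is printed where it changes a call. The scripts were tested on simulated counts.

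The members and lists were chosen with earlier results of these data known. Members were sorted by role. In each role of 4 or more, values of every library are given for the 3 called genes with the smallest p and the gene nearest to no change, and in smaller roles for all. Members not called or with a positive fold change are named, as are the 5 further pathway genes with the smallest p in each direction, RRM2B and DAB2IP. A gene that this rule names is not reported here. The other called members and markers, and values of RRM2, TK1, MCM10, CDC45 and GINS2 by library, were added after they were seen. All 44 genes have the position and strand of GENCODE release 29, and 13 share exon bases with another tested gene.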

Additional observations from a re-analysis of the deposited data

How the results depend on the processing

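The median log2 fold change of the 44 genes was negative in every fit run, and 0 of them rose in any. With the replicate block 29 fell, the 21 of the reported fit and 8 more, and the count lay between 4 and 29 when a library was left out. It was 1 for limma on log2(FPKM + 1) without a filter on low values, where 378 genes changed in all, and in that fit 1 of the further pathway genes fell and 1 rose. Limma on log2(FPKM + 0.1) gave 9 further pathway genes that fell, 2 that rose and 1417 changed genes in all, and on log2(FPKM + 1) with the filter 2 further pathway genes rose. Leaving out a library gave 5 to 17 further pathway genes that fell, 2 to 4 that rose and 723 to 2524 changed genes in all, against 15, 4 and 2192. In the same fits the log2 fold change of UNG lay between −0.210 and 0.029 and that of RPA2 between −0.095 and 0.175, the members whose direction turned, and the cause was not tested. The replicate block ended no call of a member. With 3 libraries a group, single genes cannot go under p = 0.1 in an exact permutation test, and a p that misses the threshold does not show that a gene stayed the same.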
